A study of Mus musculus with 3 samples.

Results

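Catalase, the glutathione peroxidases and the peroxiredoxins are the enzymes with which a mouse cell removes hydrogen peroxide and organic peroxides. They were followed here by hybridising total RNA to 3 single-colour arrays, each with RNA of NIH3T3, a mouse fibroblast line that came from embryos and grows without limit. The first group was 1 array of cells carrying an shRNA against retinol saturase (RetSat shRNA), labelled as highly resistant to t-BHP, the organic peroxide tert-butyl hydroperoxide. The second group was 2 arrays of cells carrying the empty vector (empty vector 1 and empty vector 2), labelled as giving basal expression, with no treatment and grown in calf serum in DMEM. Growth and treatment of the RetSat shRNA cells, whether that array came from 1 clone, and the genotype of the line beyond its name are not given in the labels. The series came from an RNAi screen for resistance to oxidative stress. The comparison asks whether transcripts of the cell's own peroxide-removing enzymes differed in the resistant cells. 10 genes were listed (Cat, Gpx1, Gpx3, Gpx4, Prdx1, Prdx2, Prdx3, Prdx4, Prdx5 and Prdx6), and every probe set whose annotation gave exactly 1 symbol from this list was taken. That gave 13 of the 45101 probe sets on the array, for 7 of the 10 genes. The 5 probe sets that name Prdx1 carry a second symbol as well and were not used, and no probe set was listed under Prdx5 or Prdx6 in the annotation used here.

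Catalase splits hydrogen peroxide into water and oxygen, mainly inside peroxisomes, and needs no reducing partner. Glutathione peroxidases reduce peroxides with glutathione, and in the mouse Gpx1, Gpx3 and Gpx4 do so through a selenocysteine in the active site. Peroxiredoxins use a cysteine that the peroxide oxidises and that, in Prdx2, Prdx3 and Prdx4, is brought back by thioredoxin or a like protein. Several genes of this defence are known targets of the transcription factor NRF2, which binds antioxidant response elements.

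Sequence directly upstream of the genes is shown as one stretch in which factors such as NRF2 can bind, and sites elsewhere were not searched. The 250 bases before each annotated start were searched on both strands for the core of the antioxidant response element (TGACNNNGC), for the GC box (GGGCGG) and for the CCAAT box (CCAAT). Matches of different motifs may share bases. RefSeq windows on GRCm38.p6 matched 9 of the 10 listed genes, with 12 windows in all, and Prdx6 had none. The antioxidant response element core was found in 1 of them, that of Prdx1, whose transcript has no value here. Over all 32851 promoter windows, 10.2% held that core, 32.7% a GC box and 33.8% a CCAAT box. The Prdx1 match is shown with a match in a window of Txnrd1, the cytosolic thioredoxin reductase, with the element in capitals and read on the minus strand of the window. They lie at chr4:116685456-116685485 (+ strand), 124 bases before the start, and at chr10:82859104-82859133 (+ strand), 83 bases before it.
Prdx1: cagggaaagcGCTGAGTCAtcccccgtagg
Txnrd1: ctggatttttGCTTTGTCAttctgacacgg

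Among the members with values, a GC box was found upstream of Cat, Gpx3, Gpx4, Prdx3 and Prdx4. The windows of Gpx1, Gpx4 and Cat are shown since these members give the clearest and the least settled readings below, with GC and CCAAT boxes in capitals. They are chr9:108338830-108339079 (+ strand), chr10:80053315-80053564 (+ strand, the second of 4 windows of Gpx4) and chr2:103485154-103485403 (- strand). The Gpx1 window held neither motif, the Gpx4 window held 2 of each, and the Cat window held 1 GC box and 4 CCAAT boxes. A match describes the letters, and no match says only that they are not in the window.
Gpx1: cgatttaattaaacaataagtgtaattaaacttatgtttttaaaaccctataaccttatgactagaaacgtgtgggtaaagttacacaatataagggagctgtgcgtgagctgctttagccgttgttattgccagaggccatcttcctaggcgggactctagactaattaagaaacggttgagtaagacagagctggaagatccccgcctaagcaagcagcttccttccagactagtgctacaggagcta
Gpx4: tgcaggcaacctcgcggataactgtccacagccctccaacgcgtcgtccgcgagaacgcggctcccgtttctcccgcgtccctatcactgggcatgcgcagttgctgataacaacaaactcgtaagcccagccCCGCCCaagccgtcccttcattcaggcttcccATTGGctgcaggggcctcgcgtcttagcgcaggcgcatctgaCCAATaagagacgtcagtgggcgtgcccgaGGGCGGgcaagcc
Cat: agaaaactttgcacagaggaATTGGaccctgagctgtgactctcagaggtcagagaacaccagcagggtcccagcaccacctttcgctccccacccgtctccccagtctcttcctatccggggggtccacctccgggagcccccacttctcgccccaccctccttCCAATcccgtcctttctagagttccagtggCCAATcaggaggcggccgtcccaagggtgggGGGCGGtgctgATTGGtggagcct

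The deposited intensities, 1 for each probe set and linear, had been scaled before deposit to a 2% trimmed mean of 250 on each array, and ran from 0.1 to 30189.8. For the comparison an offset of 10.2 was added and log2 taken, each gene was represented by its brightest probe set, and 10843 genes whose mean log2 signal reached the median of all probe sets were tested. The number of arrays limits the precision. Empty vector 1 stood apart, and empty vector 2, the control with the number that the RetSat shRNA title also bears, was the closer one: across the tested genes the SD of the log2 difference was 0.34 between RetSat shRNA and empty vector 2, 0.75 between RetSat shRNA and empty vector 1, and 0.74 between the 2 empty-vector arrays. Over all tested genes the median log2 difference of RetSat shRNA was 0.14 from empty vector 1 and 0.00 from the other control. Retsat, the target, read 69.5 on RetSat shRNA against 415.9 and 495.9 on empty vector 1 and 2 at its brighter probe set, which is 15.2% of the empty-vector mean. All 8 fibroblast markers lay at or above the median signal, and their summed level was 70458.2 on RetSat shRNA and 68247.3 and 69451.5 on empty vector 1 and 2. Of the other markers with a probe set, 2 of 4 epithelial, 0 of 3 endothelial and 1 of 3 blood markers did. The summed epithelial, endothelial and blood levels were 194.4, 89.9 and 164.3 on RetSat shRNA, 189.9, 50.4 and 168.8 on empty vector 1, and 188.4, 47.5 and 159.7 on empty vector 2. Those at or above the median were Epcam, Krt8 and Cd68, each at 1 probe set, while Cdh1, Pecam1 and Ptprc were below it at every probe set.

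At its brightest probe set, each of the 6 members bright enough to be tested read 1093.5 intensity units or more on every array. None of the 6 passed limma's test. In limma (Benjamini-Hochberg over 10843 genes) the adjusted p was 1 for each, and no member had an unadjusted p under 0.05. Of all tested genes 0% passed, with 108 at an unadjusted p under 0.05. None of these 6 differed 2-fold or more from both controls in the same direction, against 0.0922% of all tested genes on the higher side and 0.498% on the lower. The RetSat shRNA array lay above both empty-vector arrays for 4 of the 6, Gpx1, Gpx4, Prdx2 and Prdx4, and below both for 0, where 34.4% of all tested genes lay above both (37% of the 7007 genes at or above the 75th percentile of signal) and 25.4% below both. After quantile normalization only Gpx1 and Gpx4 of the 6 lay above both arrays and Prdx2 lay below both. Of all tested genes 36.3% then lay above both. The median log2 difference of the 6 was 0.21 against the control mean, 0.23 relative to empty vector 1 and 0.10 relative to empty vector 2. Over all tested genes these medians were 0.07, 0.14 and 0.00. After quantile normalization the order turned, with a median of 0.073 for the 6 members and 0.099 for all tested genes against the control mean. The fit has 1 residual degree of freedom, taken from the 2 empty-vector arrays. It thus takes RetSat shRNA, a single array, to vary as much as they do, and nothing says that they came from separate cultures. Retsat itself, the target, did not pass in this fit either, at a log2 difference of -2.54 (SE 0.50). The lack of a call therefore cannot tell differences of the members' size from none. On these arrays fewer cells of a kind and less RNA per cell cannot be told apart.

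**Figure D1:**
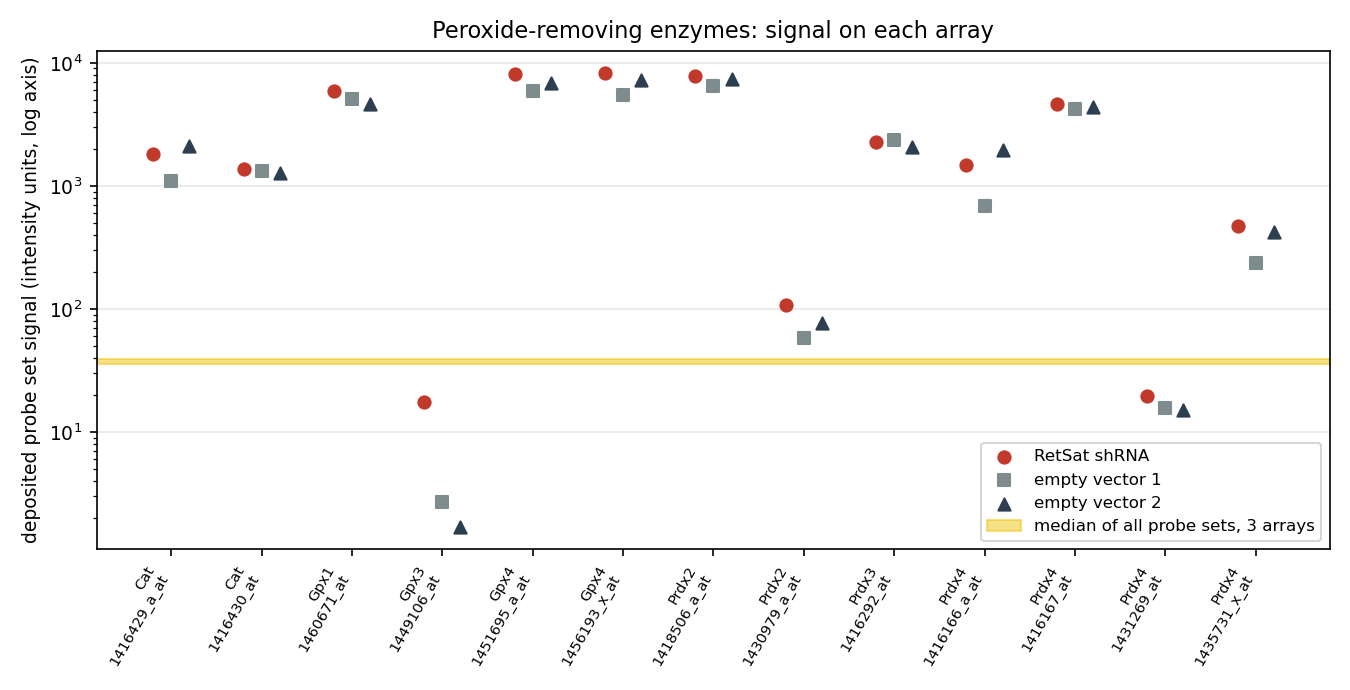
Deposited signal (intensity units, log axis) of the 13 probe sets of the 7 genes on RetSat shRNA (circles), empty vector 1 (squares) and empty vector 2 (triangles); the band is the median of all probe sets on the 3 arrays. The Gpx4 and Gpx1 circles lie above both controls, Cat and Prdx4 each have a probe set that is low on empty vector 1, and Gpx3 lies below the band on every array.

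Gpx4, the glutathione peroxidase that reduces lipid hydroperoxides within membranes and guards against ferroptosis, had the largest difference from the control mean among the brightest probe sets of the 6. Averaged over a gene's probe sets Prdx2 came out higher (0.39, against 0.37 for Gpx4), and after quantile normalization Cat did (0.23, against 0.21 for Gpx4). Its brighter probe set (1451695_a_at) read 8191.2 on RetSat shRNA, against 5915.5 and 6870.4 on empty vector 1 and 2. The second probe set (1456193_x_at) read 8207.1 on RetSat shRNA, against 5438.2 and 7238 on empty vector 1 and 2. Both probe sets put RetSat shRNA above both controls, with empty vector 1 the lowest. The empty-vector mean of the brighter probe set was 6392.95 ± 675 (SD, n = 2), and the RetSat shRNA signal was 128% of it. On the log2 scale the difference was 0.36 (SE 0.50, 95% interval -0.75 to 1.47), with 0.47 relative to empty vector 1 and 0.25 relative to empty vector 2. Among the 7007 brighter genes, 91.3% had a smaller difference from empty vector 2, and 74.1% a smaller one from empty vector 1. The empty-vector arrays themselves differed by 0.22, so the gap to the nearer control was of the size of the gap between controls.

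Gpx1, the abundant glutathione peroxidase of the cytosol and mitochondria, was the other member above both controls under every scaling. Its 1 probe set (1460671_at) read 5923.8 on RetSat shRNA, against 5117.5 and 4638.1 on empty vector 1 and 2 (mean 4877.8 ± 339, SD, n = 2). The RetSat shRNA signal was 121% of the empty-vector mean, and here empty vector 2 was the lowest array. The log2 difference was 0.28 (SE 0.50, 95% interval -0.83 to 1.39), with 0.21 relative to empty vector 1 and 0.35 relative to empty vector 2. The difference from empty vector 2 exceeded that of 95.9% of the brighter genes, while that from empty vector 1 lay near their middle, above 51.4% of them. After quantile normalization the difference from empty vector 1 was 0.03. Gpx3, the secreted glutathione peroxidase of plasma, read 17.5 on RetSat shRNA, against 2.7 and 1.7 on empty vector 1 and 2. All 3 values lie below the median of all probe sets on their array (35.7, 39.4 and 37.9), so the gene was not tested and no fold is given. With no detection calls used here, it is not known whether any of these readings stood above background.

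Catalase gave 2 readings that did not match. The brighter probe set (1416429_a_at) read 1825.7 on RetSat shRNA, against 1093.5 and 2116.1 on empty vector 1 and 2, so that RetSat shRNA lay between the controls. The other (1416430_at) read 1382.4 on RetSat shRNA, against 1320.6 and 1265.5 on empty vector 1 and 2, a narrow spread with RetSat shRNA the highest. For the brighter one the log2 difference was 0.26 (SE 0.56, 95% interval -0.98 to 1.501), with 0.73 relative to empty vector 1 and -0.21 relative to empty vector 2. For the other it was 0.10 (SE 0.49 in the fit of single probe sets), with 0.07 and 0.13 from empty vector 1 and 2. The sign for catalase thus depends on the control array at one probe set, where the controls differed by 0.95 on the log2 scale. At the other probe set they differed by 0.06.

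**Figure D2:**
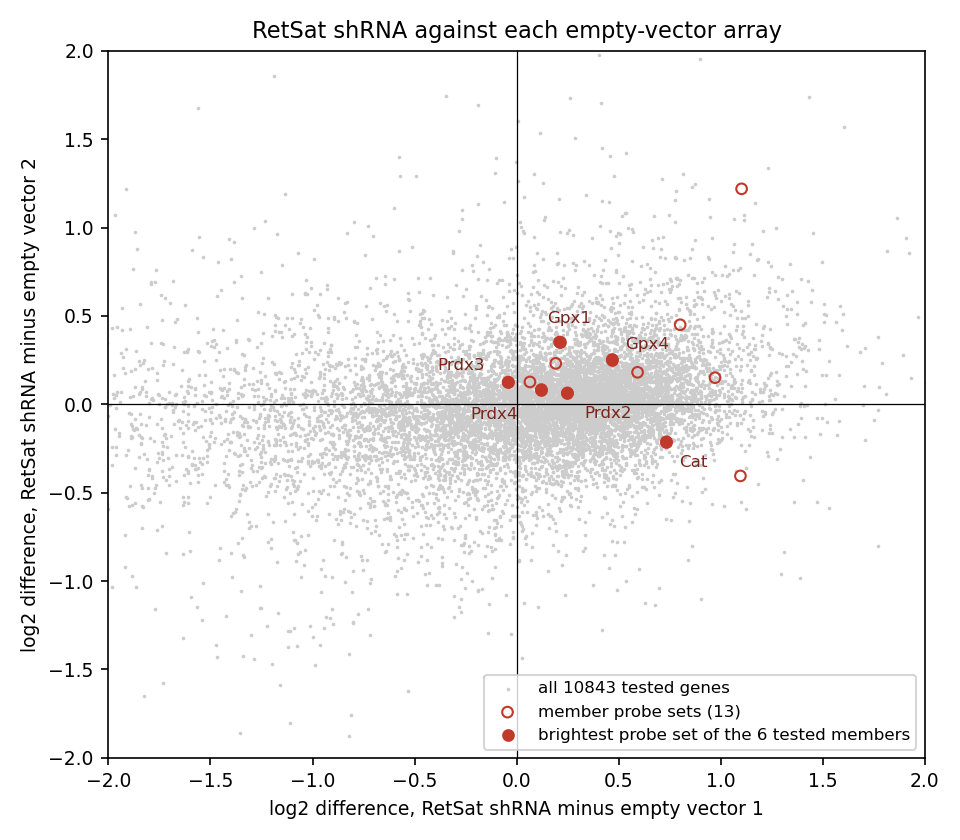
Log2 difference of RetSat shRNA from empty vector 1 (x axis) and from empty vector 2 (y axis) for all tested genes (grey), the 13 member probe sets (open circles) and the brightest probe set of the 6 tested members (filled); 284 tested genes lie outside the plotted range. Gpx1, Gpx4, Prdx2 and Prdx4 lie to the upper right within the grey cloud, Cat lies to the lower right and Prdx3 just left of the vertical axis.

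Among the peroxiredoxins the size of the difference depended on the probe set. Prdx2, a cytosolic thioredoxin-dependent peroxidase, read 7762.9 on RetSat shRNA, against 6530.6 and 7423.1 on empty vector 1 and 2, at its brighter probe set (1418506_a_at). The log2 difference was 0.16 (SE 0.50, 95% interval -0.95 to 1.27), with 0.25 relative to empty vector 1 and 0.06 relative to empty vector 2, and after quantile normalization it was -0.02. Its dimmer probe set (1430979_a_at) read 108.5 on RetSat shRNA, against 57.9 and 76.7 on empty vector 1 and 2, a log2 difference of 0.63 (SE 0.50 in the fit of single probe sets). Both probe sets put RetSat shRNA highest and empty vector 1 lowest, with the wider gap at the dim one.

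Prdx3, the mitochondrial peroxiredoxin, was the member nearest to no difference. It read 2276 on RetSat shRNA, against 2342.7 and 2085.8 on empty vector 1 and 2, so RetSat shRNA lay between the controls. The log2 difference was 0.04 (SE 0.50, 95% interval -1.07 to 1.15), with -0.04 relative to empty vector 1 and 0.13 relative to empty vector 2. The width of the interval leaves a 2-fold difference in either direction within it, as it does for Prdx4 below.

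Prdx4, the peroxiredoxin of the endoplasmic reticulum, had 4 probe sets. The brightest (1416167_at) read 4601.9 on RetSat shRNA, against 4229.3 and 4343.5 on empty vector 1 and 2, a log2 difference of 0.10 (SE 0.50, 95% interval -1.004 to 1.21) that became -0.02 after quantile normalization. Next, 1416166_a_at read 1488.7 on RetSat shRNA, against 690.6 and 1974.7 on empty vector 1 and 2. The third, 1435731_x_at, read 470.5 on RetSat shRNA, against 234.8 and 422.9 on empty vector 1 and 2. These 2 probe sets were low on empty vector 1, while the brightest read alike on all arrays. The dimmest (1431269_at), below the median of all probe sets, read 19.5 on RetSat shRNA, against 15.8 and 15.1 on empty vector 1 and 2.

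Counted by probe set, RetSat shRNA was above both controls for 8 of the 11 that reached the median signal, and below both for 0. Of all tested probe sets, 30.8% lay above both and 29.2% below both. The 3 in between were the brighter probe set of Cat, that of Prdx3 and 1416166_a_at of Prdx4. Empty vector 1 was the lowest of the 3 arrays for 8 of the 11, against 46.2% of all tested probe sets, and by gene for 4 of the 6, against 52.6% of all tested genes. The part of that array in the members' differences was not tested. Without it, the log2 differences of the 6 genes ran from -0.21 (Cat) to 0.35 (Gpx1), and without empty vector 2 from -0.04 (Prdx3) to 0.73 (Cat). Probe sets of one gene share its transcript and are not separate evidence.

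**Figure D3:**
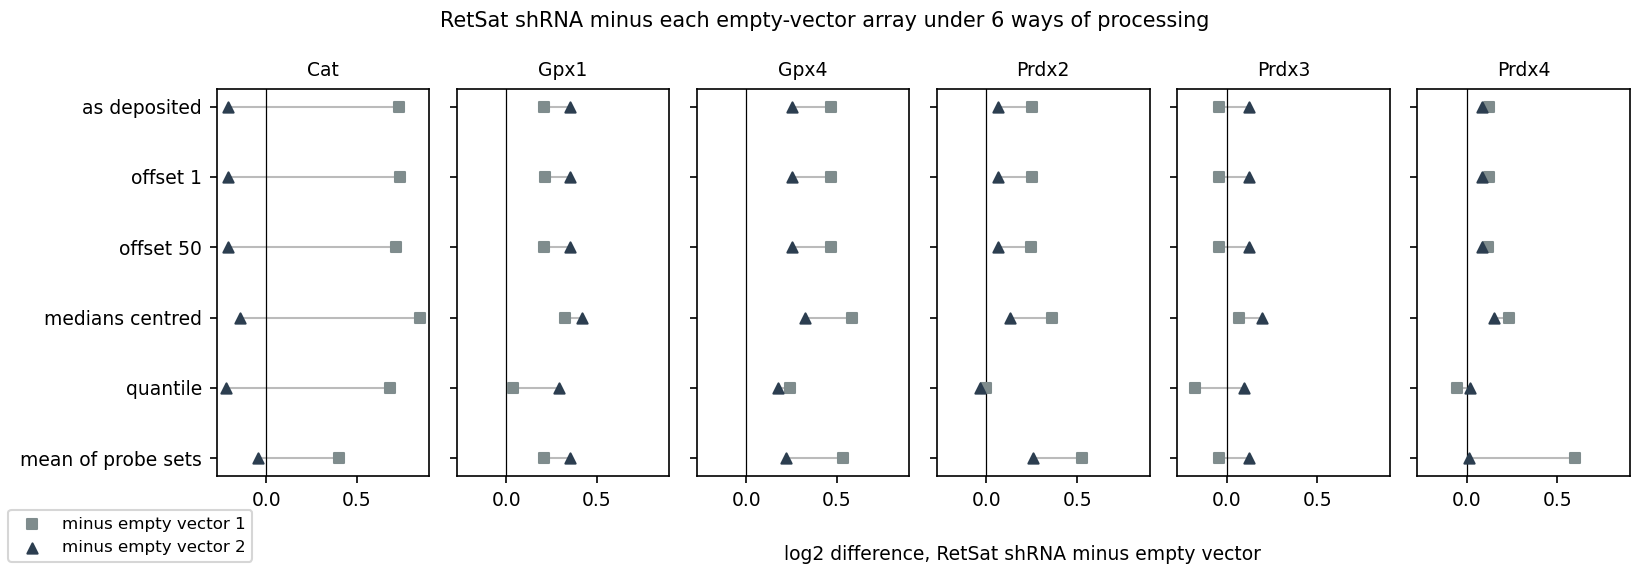
Log2 difference of RetSat shRNA from empty vector 1 (squares) and empty vector 2 (triangles) for the 6 tested members under 6 ways of processing, from the values as deposited at the top to the mean over a gene's probe sets at the bottom. Gpx1 and Gpx4 stay right of 0 against both arrays in every row. Cat spans 0 in every row, Prdx2 and Prdx4 move to about 0 after quantile normalization, and Prdx3 spans 0 in every row but that of centred medians. Other offsets barely move such bright genes, and for Gpx1 and Prdx3, with 1 probe set each, the last row repeats the first.

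Genes that serve these enzymes were read from 5 further lists, and no tested gene of them passed limma or was 2-fold from both controls. The counts and medians of each list stand beside those of all tested genes. Of these, 34.4% lay above both controls and 25.4% below both, with medians of 0.14 and 0.00 relative to empty vector 1 and 2. The list of reducing partners holds genes whose proteins regenerate oxidised peroxidases, and related genes, such as Txnip, whose proteins do not. It had 17 of 17 genes tested, with 7 above both controls, 3 below both and 7 between. Their median log2 difference was 0.49 relative to empty vector 1 and -0.01 relative to empty vector 2. Thioredoxin Txn1 read 18723.6 on RetSat shRNA, against 14938.4 and 17049.5 on empty vector 1 and 2, although its dim second probe set lay below both. Glutathione reductase Gsr, which regenerates glutathione, read 1285 on RetSat shRNA, against 705.6 and 1086.7 on empty vector 1 and 2, although at its other probe set RetSat shRNA lay between the controls. Below both controls were Sesn3, of the stress-responsive sestrin family, at 379.6 on RetSat shRNA against 593.4 and 530.3 on empty vector 1 and 2, and the mitochondrial thioredoxin reductase Txnrd2, at 160 against 226.4 and 201.4. A further probe set of Txnrd2 (1429971_at) lay above both. Of the other glutathione peroxidases 2 of 5 were tested. Gpx7, an endoplasmic reticulum member, read 705.9 on RetSat shRNA, against 743.1 and 718.4 on empty vector 1 and 2, and Gpx8 lay between the controls. The remaining Gpx2, Gpx5 and Gpx6 were too dim to be tested.

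Selenoprotein synthesis, on which Gpx1, Gpx3 and Gpx4 depend, had 8 of 9 genes tested, with 2 above both controls and 3 below both. The gene too dim to be tested, the selenocysteine lyase Scly, had 2 probe sets that went opposite ways, with 2.2 on RetSat shRNA against 62.7 and 31.5 on empty vector 1 and 2 at one, and 51.6 against 6.6 and 9.9 at the other. The median log2 difference was -0.04 relative to empty vector 1 and -0.14 relative to empty vector 2. Sepsecs, the enzyme that makes selenocysteine on its tRNA, read 67.7 on RetSat shRNA, against 184.2 and 109.4 on empty vector 1 and 2. The SECIS-binding Secisbp2, which recruits the selenocysteine machinery to the mRNA, read 211.5 on RetSat shRNA, against 290 and 397.9 on empty vector 1 and 2. Both genes had a second probe set, and at each of those RetSat shRNA was the lowest array as well. Their log2 differences were -0.97 (SE 0.53) for Sepsecs and -0.66 (SE 0.51) for Secisbp2. The selenoprotein P receptor Lrp8 read 358.7 on RetSat shRNA, against 479.8 and 465.4 on empty vector 1 and 2, and Trnau1ap, a tRNA selenocysteine associated protein, read 966.6 against 745.8 and 917.3. Another probe set of Lrp8 lay between the controls.

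Peroxide-producing enzymes had 12 of 23 genes tested, with 7 above both controls and 1, the monoamine oxidase Maoa, below both. Their median log2 difference was 0.46 relative to empty vector 1 and 0.08 relative to empty vector 2. The superoxide dismutases, which turn superoxide into hydrogen peroxide, were among those above both. Mitochondrial Sod2 read 8578.2 on RetSat shRNA, against 5626.4 and 6609.9 on empty vector 1 and 2, and Sod1 read 4517.6, against 3055 and 3583.5, at its brightest probe set. For Sod2 and Sod1 at least 1 other probe set each lay between the controls. A dim one of Sod2 lay below both, at 98.7 on RetSat shRNA against 159.9 and 99.5 on empty vector 1 and 2. Sod3 read 254.6 on RetSat shRNA, against 170.3 and 225.6 on empty vector 1 and 2, at its brighter probe set. Its other probe set lay below both, at 71.1 against 135.6 and 84.8. Cyba, a subunit of NADPH oxidases, read 1241.8 on RetSat shRNA, against 807.8 and 1058.9 on empty vector 1 and 2. Ero1a, the endoplasmic reticulum oxidase whose peroxide Prdx4 can remove, read 476.9 on RetSat shRNA, against 423.4 and 315.8 on empty vector 1 and 2, the opposite order of controls, and at another of its probe sets RetSat shRNA lay between the controls.

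Peroxisomal matrix import, the route by which catalase enters the peroxisome, had 7 of 9 genes tested, with 2 above both controls and 1 below both. The median log2 difference was 0.34 relative to empty vector 1 and -0.07 relative to empty vector 2. Pex10, a ubiquitin ligase of the import machinery, read 201.7 on RetSat shRNA, against 112.6 and 118.9 on empty vector 1 and 2, a log2 difference of 0.75 (SE 0.50) with the controls close together. The import receptor Pex5 read 275.5 on RetSat shRNA, against 346.6 and 315.5 on empty vector 1 and 2, and Pex2 read 962.8, against 760.6 and 849.3. Pex5 and Pex2 each had another probe set that lay between the controls.

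**Figure D4:**
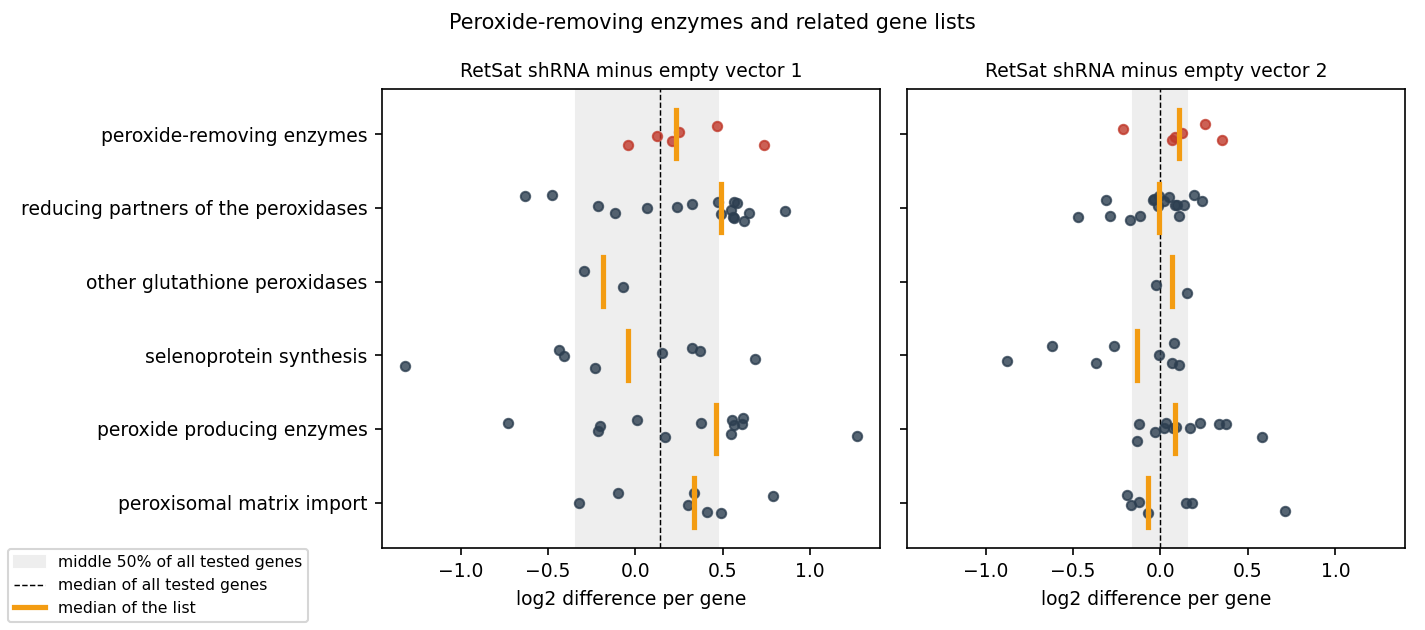
Log2 difference of RetSat shRNA from empty vector 1 (left) and from empty vector 2 (right) for each tested gene of the peroxide-removing enzymes and of 5 related lists; thick bars are list medians, the dashed line is the median of all tested genes and the grey band holds the middle 50% of them. Points spread more widely against empty vector 1 than against empty vector 2, and the peroxide-removing enzymes have medians of 0.23 and 0.10.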

How the data were processed

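Total RNA of NIH3T3 cells was labelled with biotin and read on single-colour arrays, per the labels. The deposited intensity values are 1 per probe set on a linear scale, and the authors had scaled them to equal trimmed means, as the deposited values show. The sources used here name no summarisation software. Groups came from sample titles. Symbols came from the platform annotation, checked by gene ID against GRCm38.p6 (0 changed), and 34945 probe sets with 1 symbol were used. log2(signal + 10.2) was fitted in limma 3.58.1 (R 4.3.3; lmFit, eBayes, two-sided, threshold 0.05) over all 3 arrays, and fold changes on this scale understate dim genes. The offset is the 25th percentile of all values. The scripts were tested on simulated data. All members are named with every probe set, and up to 4 genes of each related list ranked on whichever control they lay nearer to. Members and lists were chosen with earlier results of these data known. Promoters are RefSeq windows.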

Additional observations from a re-analysis of the deposited data

How the results depend on the processing

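Directions were recomputed with other offsets, filters, scalings, probe set rules and a robust variance prior. A filter or a robust prior cannot change a gene's log2 difference, so agreement under those settings was fixed in advance. So was that of Gpx1 and Prdx3 under the mean over probe sets, since each has 1 probe set. Centring moved every gene's difference upward by the same amount, so no member above the control mean could turn. Of 56 recomputed differences of the 6 members and Retsat, these included, 53 kept their direction. The other 3 came with quantile normalization, at -0.019 for Prdx2, -0.039 for Prdx3 and -0.018 for Prdx4, and 1 passed limma, Retsat with the robust prior (adjusted p = 0.00717). Members above both empty-vector arrays numbered 2 of 6 with quantile normalization against 4 of 6, 5 of 6 with arrays centred on their medians (Prdx3 added), 5 of 7 with no filter, and 8 of 11 counted by probe set, an alternative chosen after seeing the data. The median of the members was 0.30 with arrays centred on their medians and 0.073 with quantile normalization (0.099 for all genes). Genes past limma numbered 0, but 1 with arrays centred and 7, all lower, with the robust prior. Genes at least 2-fold from both controls numbered 64, against 110 with an offset of 1, 7 with an offset of 50, 800 with no filter (386 higher and 414 lower, against 10 and 54), 1 at or above the 75th percentile and 211 by probe set. Centring put 45.4% of all tested genes above both controls, quantile normalization 36.3% and no filter 33.6%, against 34.4%. Counted by probe set the share was 30.8%. Leaving out an empty-vector array left no residual degree of freedom, so no test was run. Without either one, the 2-fold count ran from 188 to 1478, the members' median from 0.10 to 0.23, Cat from -0.21 to 0.73 and Prdx3 from -0.041 to 0.13. The cause was not tested. No paired analysis was possible because the groups share only 1 replicate number, the 2 of RetSat shRNA and empty vector 2, and what it stands for is not stated. Without detection calls, dim signals carry no known margin over background.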

Other observations

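Probe sets of one gene often differed on these arrays. Among 5131 genes with at least 2 tested probe sets, the median range of the log2 difference across a gene's probe sets was 0.60 relative to empty vector 1 and 0.36 relative to empty vector 2. A range tends to widen with the number of probe sets, and the genes were not matched for that number. For Prdx4 the range was 0.98 from empty vector 1, wider than in 72.1% of these genes, and 0.56 from empty vector 2. For Cat it was 0.67 and 0.34, and for Prdx2 0.55 and 0.39, all near the middle of those genes. For Gpx4 it was 0.12 relative to empty vector 1 and 0.07 relative to empty vector 2, narrower than in most. Of the dim glutathione peroxidases, Gpx2 at 46.4 on RetSat shRNA against 24 and 9.3 on empty vector 1 and 2, and Gpx5 at 21.4 against 5 and 6.1, were highest on RetSat shRNA like Gpx3, whereas Gpx6, at 3.9 against 7.6 and 3.7, lay between the controls. None of these signals was tested, and with no filter 33.6% of all 18193 genes lay above both controls.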
